A study of Mus musculus with 6 samples.

Results

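The 37 genes described here encode proteins of the mitotic machinery or, in 1 case, a long non-coding RNA: Top2a, Mki67, Nusap1, Prc1, Pbk, Ccnb1, Ccnb2, Cdc20, Cenpa, Cenpe, Cenpf, Hmmr, Kif20a, Kif11, Kif23, Tpx2, Aurka, Aurkb, Bub1, Bub1b, Plk1, Pttg1, Birc5, Cdk1, Ube2c, Cdca3, Cdca8, Ckap2l, Ckap2, Knstrn, Ndc80, Nuf2, Spc25, Tacc3, Racgap1, Anln and the non-coding Lockd. They were chosen by symbol, and 37 of 37 were found among the 31053 genes measured. The cells were CD45+ immune cells sorted from the tumor-bearing hemisphere of female SCID mice, which lack functional T and B cells, after intracranial implantation of U87, a human glioblastoma cell line. In 3 mice the U87 cells overexpressed IL-33 and tissue was taken at 3 weeks, and in 3 mice they carried the empty pcDNA vector and tissue was taken at 6 weeks. All mice were 8 weeks old at implantation by the growth protocol, while the age label reads 6 to 8 weeks. Tumor type and time after implantation therefore cannot be told apart, and the labels used for grouping do not name the mouse behind each of the 6 barcode suffixes, 1 per library. Suffixes were therefore put in no group, and the matrix was treated as 1 pooled sample: no comparison between IL-33 and control tumors was made, no p-value is given, and all intervals are exact 95% intervals that cover counting error alone.

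A dividing cell first copies its DNA and then, in mitosis, condenses the chromosomes, attaches them to the spindle at the kinetochores, and pulls the copies apart. Cyclin B bound to the kinase Cdk1 drives entry into mitosis, and the anaphase-promoting complex ends it by marking cyclin B and securin for destruction. Transcripts of many of these genes are kept low in resting cells and rise after DNA replication has begun. Microglia, the resident macrophages of the brain, renew themselves by local division and divide more after injury or near tumors. The question addressed was which lineages held mitotic cells, and how cells with mitotic transcripts differed from cells with transcripts of DNA replication.

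Barcode sequences were not independent between suffixes. Of 40411 barcodes, 14722 (36.4%) carried a sequence that also occurred under at least 1 other suffix. These came from 3890 sequences, of which 490 occurred under all 6 suffixes. The shared barcodes were shallow, with a median of 929 UMIs against 3137 UMIs for the others. Profiles of the same sequence under 2 suffixes were alike: over 2000 genes and 3778 pairs the median Pearson correlation was 0.257, against 0.00266 for pairs of unlike sequence. These profiles were log levels of the 2000 genes with the most UMIs, each less the gene's mean over cells. The mitotic cells showed the same. Of 246 mitosis-high cells, as defined below, 49 stood on shared barcodes, and these 49 came from 16 sequences, of which 12 were mitosis-high under at least 2 suffixes. The cause was not tested. The shares and counts below are therefore given for all barcodes, and the main ones also for barcodes whose sequence occurred under 1 suffix; levels of single genes are for all barcodes.

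After the filters of the study and removal of choroid plexus-like cells, 38503 barcodes remained, with 53.0 to 208 UMIs of the 37 mitosis genes per 1000000 UMIs (CPM) per suffix and 134 CPM (interval 132 to 136) over all. For shares of cells, the 29454 barcodes with at least 1000 UMIs were thinned to 1000 UMIs, and 9049 shallower barcodes were left out. A cell was called mitosis-high when it held UMIs of at least 3 distinct mitosis genes, and replication-high when it held UMIs of at least 3 of 37 genes of DNA replication, such as Mcm2 to Mcm7, Pcna and Rrm2. Such a class is a range of a count and not a cell type: 99 cells held 2 distinct mitosis genes and 42 held 3.

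In all, 246 of 29454 cells were mitosis-high, a share of 0.835% (0.734 to 0.946). Replication-high cells were more frequent, at 703 cells or 2.39% (2.22 to 2.57). The 2 lists differ in background. In microglia-like cells, as gated below, that were high for neither list, the replication genes summed to 317 CPM and the mitosis genes to 51.2 CPM. What part this had in the 2 shares was not tested. Among barcodes whose sequence occurred under 1 suffix, the mitosis-high share was 0.848% (197 of 23221 cells) and the replication-high share 2.73% (633 cells). Both lists were high in 145 cells, which were 58.9% of mitosis-high cells (52.5 to 65.2) but 20.6% of replication-high cells (17.7 to 23.8); without shared sequences the first of these was 57.9%. That left 101 cells high for mitosis alone and 558 high for replication alone. Mitosis-high cells held a median of 6 distinct mitosis genes and up to 22, whereas no cell held over 14 distinct replication genes.

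**Figure D1:**
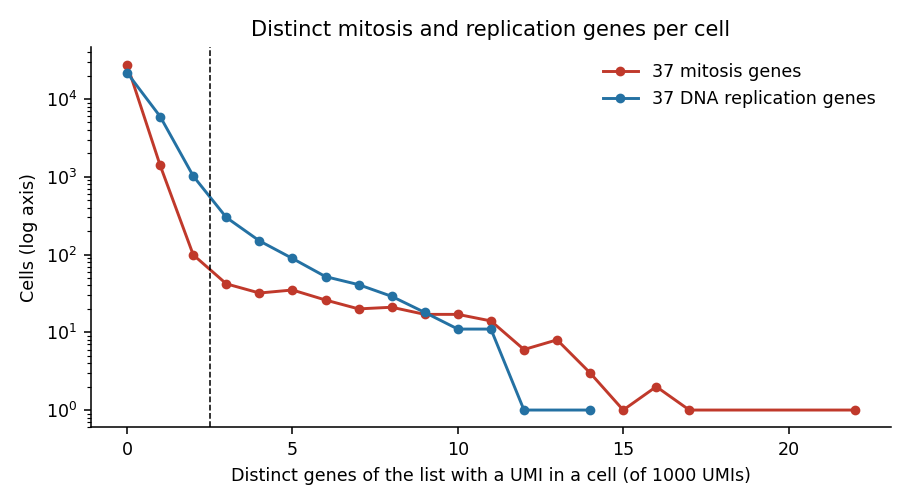
Number of cells (log axis) by the number of distinct genes of a list with a UMI among 1000 UMIs, for the 37 mitosis genes and the 37 DNA replication genes; the dashed line lies between 2 and 3 genes, where cells were called high. Fewer cells held 3 mitosis genes (42) than 3 replication genes (300), but the mitosis genes reached 22 in a cell and the replication genes 14.

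Shares differed between suffixes beyond counting error. Mitosis-high cells made up 0.684% of suffix 1, 0.476% of suffix 2, 0.179% of suffix 3 (4 of 2234 cells), 1.56% of suffix 4, 1.05% of suffix 5 and 1.04% of suffix 6. The intervals of suffixes 2 and 3 lay below those of suffixes 4, 5 and 6. Without shared sequences the shares were 0.639%, 0.440%, 0.143%, 1.67%, 1.06% and 1.07% in the same order. The replication-high share ran from 1.29% in suffix 1 to 4.61% in suffix 4. Replication-high cells outnumbered mitosis-high cells in each suffix, by 1.89 times in suffix 1 to 7.50 times in suffix 3. Since the lists differ in background and both shares change with thinning, these are not ratios of cells in the 2 phases. Over all kept barcodes the summed level of the 37 mitosis genes was lowest in suffix 3, at 53.0 CPM, and highest in suffix 4, at 208 CPM. Top2a, for example, ran from 4.24 CPM in suffix 3 to 16.9 CPM in suffix 4, with a median of 9.99 CPM, and Mki67 from 0.688 to 6.36 CPM, with a median of 3.16 CPM. Suffixes were not assigned to tumor types here, so the spread between them is given without a comparison of groups.

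**Figure D2:**
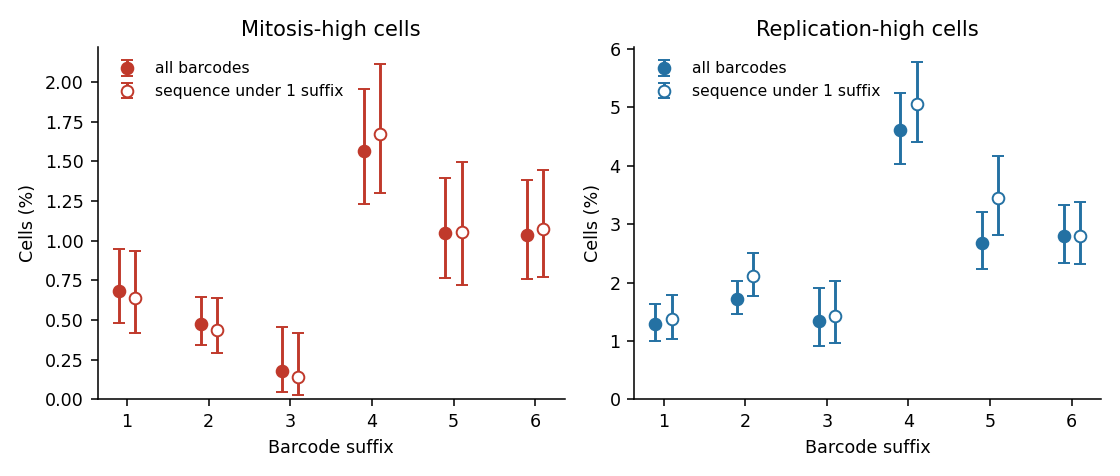
Share of cells (%) called mitosis-high (left) and replication-high (right) under each barcode suffix, with exact 95% binomial intervals; filled points are all barcodes and open points are barcodes whose sequence occurred under 1 suffix. The mitosis-high share ran from 0.179% in suffix 3 to 1.56% in suffix 4, and leaving out shared sequences kept these as the lowest and highest.

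Among the 28476 microglia-like cells, levels of each gene were compared between 4 classes: 90 cells high for mitosis alone, 143 high for both lists, 544 high for replication alone and 27699 high for neither. A gene's own UMIs were left out when its cells were classed, so that no gene chose the cells in which its level was read; the other 36 genes of its list did. Levels are CPM from all UMIs of a class, and 1 UMI of a gene outside the lists was worth 3.58 CPM in the mitosis-alone class.

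The 37 genes moved as a block between mitosis and replication. At a ratio of at least 2, 37 of 37 were higher in mitosis-alone cells than in replication-alone cells, where 11.1% of the 8476 genes of at least 10 CPM in either class met the same rule; the median ratio was 14.4 for the members and 1.04 for all genes. In 5 suffixes with at least 20 cells of both kinds, 37 of 37 were higher in mitosis-high cells in each suffix. Against cells high for neither list, 37 of 37 met the ratio of 2 as well (15.3% of 8321 genes did), with a median ratio of 185. Without shared sequences 37 of 37 again met the ratio of 2 over replication alone, with a median of 15.8. Since classes were drawn with genes of the same list, these ratios describe how far the list holds together and are not independent evidence for it.

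The pair of genes of chromosome structure held 10.5% of member UMIs, and Top2a alone had the highest level of the members. Top2a (GRCm38 chromosome 11, 98992943 to 99024189, minus strand), the topoisomerase that untangles DNA copies, was at 752 CPM in mitosis-high cells, with 678 to 855 CPM in the 5 suffixes. Of its UMIs 65.3% fell in mitosis-high cells. Mki67 (chromosome 7, 135689784 to 135716361, minus strand), which coats mitotic chromosomes and is the standard marker of dividing cells, was at 266 CPM and ranged from 239 to 319 CPM. It was at 19.9 CPM in replication-alone cells and 0.717 CPM in cells high for neither.

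Of the 9 centromere and kinetochore genes, Birc5, which encodes survivin of the chromosomal passenger complex, stood at 388 CPM in mitosis-high cells (290 to 486 in the suffixes). Its partner in that complex, Cdca8 (borealin), stood at 321 CPM (263 to 423). Cenpa (chromosome 5, 30666777 to 30674830, plus strand), the histone H3 variant of centromeres, stood at 324 CPM (218 to 444). Cenpa separated mitosis from replication most sharply of the members: it had 142 UMIs in mitosis-alone cells and 3 in replication-alone cells, a ratio of 353 (118 to 1732). Its level in replication-alone cells, 1.54 CPM, was below the 4.85 CPM of cells high for neither. Cenpf, which binds kinetochores in late G2 and mitosis, was at 252 CPM (207 to 306), with a ratio of 118 (52.5 to 330). At the other end, Spc25, a subunit of the NDC80 complex that grips microtubules, had the lowest ratio of the members, 2.33 (1.02 to 4.91). The other subunits of that complex, Ndc80 and Nuf2, were also among the lower ratios, at 5.45 and 4.89. Cenpe, a kinetochore motor, and Knstrn, a spindle and kinetochore protein, had ratios of 27.9 and 36.1.

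The spindle and cytokinesis group was the largest, with 12 genes and 27.7% of member UMIs in microglia-like cells. Prc1 (chromosome 7, 80294450 to 80316259, plus strand), which bundles the midzone of the spindle, stood at 301 CPM in mitosis-high cells, with 260 to 407 CPM in the suffixes. Kif23 and Racgap1, which together form centralspindlin at the cleavage site, stood at 298 and 262 CPM. Nusap1, which bundles spindle microtubules near chromosomes, stood at 272 CPM (252 to 329). Ratios of mitosis alone over replication alone in this group ran from 3.95 for Tacc3, which stabilizes spindle fibers, to 41.1 for Hmmr, a spindle-pole protein. Between these fell Ckap2l at 7.06, Kif11 at 8.96, Ckap2 at 9.98, Anln at 10.1, Nusap1 at 12.2, Prc1 at 13.2, Tpx2 at 18.9, Racgap1 at 20.3, Kif20a at 28.3 and Kif23 at 32.3.

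Among cyclins and mitotic kinases, Pbk, a kinase of mitotic cells, stood highest at 402 CPM in mitosis-high cells (298 to 505 in the suffixes). Plk1, the polo-like kinase that acts from mitotic entry to cytokinesis, had 38 UMIs in mitosis-alone cells and 1 UMI in replication-alone cells, a ratio of 269 whose interval was wide (45.4 to 10899). Ccnb2 and Ccnb1, the B-type cyclins, had ratios of 94.6 (44.1 to 242) and 43.2 (22.0 to 94.6). The kinase they activate behaved differently in size: Cdk1 (chromosome 10, 69335146 to 69352938, minus strand) had a ratio of 2.99 (1.99 to 4.41) and was at 45.5 CPM in replication-alone cells. Aurkb and Bub1, which correct and check chromosome attachment, were also low, at 4.12 (2.44 to 6.84) and 4.34 (2.17 to 8.39). Aurka, which matures spindle poles, was at 15.7. Bub1b, of the spindle checkpoint, stood at 64.4 CPM in mitosis alone against 4.61 CPM in replication alone.

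Genes of protein degradation in mitosis had the highest group median but for the single non-coding RNA. Pttg1, or securin, whose destruction lets sister chromatids part, stood at 282 CPM in mitosis-high cells (202 to 384). Its ratio over replication alone was 43.5. Cdc20, the activator of the anaphase-promoting complex, had a ratio of 51.9, Ube2c, its ubiquitin-conjugating enzyme, 46.9, and Cdca3 14.4. Lockd, a non-coding RNA transcribed next to Cdkn1b, had 32 UMIs in mitosis-alone cells and 3 in replication-alone cells, a ratio of 76.1 (23.8 to 388).

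**Figure D3:**
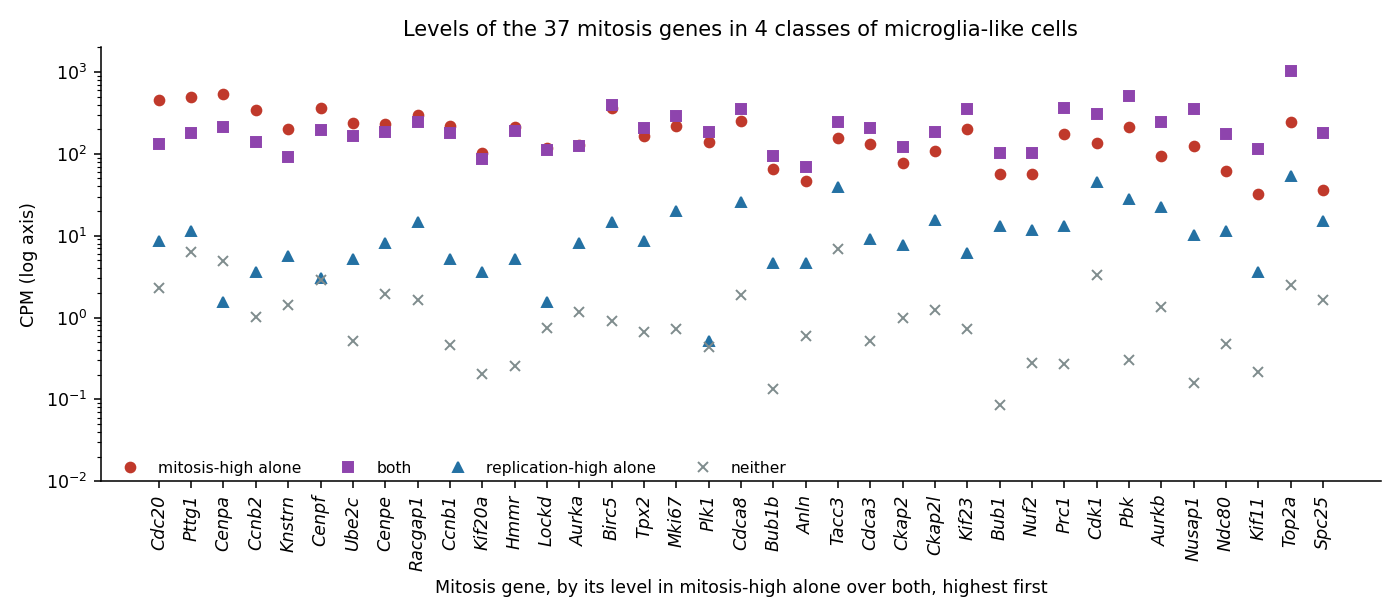
Level (CPM, log axis) of each of the 37 mitosis genes in microglia-like cells high for mitosis alone, both lists, replication alone or neither, each gene read in cells classed without it; genes are ordered by the level in mitosis alone over that in both. Cdc20 stands first with 453 against 132 CPM and Spc25 last with 35.8 against 181 CPM, and 37 of 37 genes lie higher in mitosis alone than in replication alone.

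Between mitosis-alone cells and cells high for both lists, members lay on either side. Of the 37, 5 were at least 2-fold higher in mitosis alone, against 10.2% of 8675 genes, and 9 were at least 2-fold lower, against 19% of genes, so that both counts were near the background and are not a result about the list. The 5, named here after their values were seen, were Cdc20 (453 against 132 CPM, ratio 3.43, interval 2.54 to 4.66), Pttg1 (489 against 180 CPM, ratio 2.72), Cenpa (544 against 215 CPM, ratio 2.53), Ccnb2 (340 against 138 CPM, ratio 2.47) and Knstrn (204 against 90.6 CPM, ratio 2.25). In 5 suffixes with at least 10 cells of each class, the first 4 and Cenpf were higher in mitosis alone in each. Knstrn was higher in 4 of 5. The 9 on the other side were Spc25 (35.8 against 181 CPM, ratio 0.198), Top2a (244 against 1030 CPM, ratio 0.237), Kif11, Ndc80, Nusap1, Aurkb, Pbk, Cdk1 and Prc1. Top2a was lower in mitosis alone in 5 of 5 suffixes. Of the degradation genes 3 of 4 were higher in mitosis alone, and of the 12 spindle and cytokinesis genes 3 were. The median ratio of all genes was 0.948, and the share of all genes above 1 was not computed. These counts are therefore not a result about the groups. Without shared sequences 6 members were at least 2-fold higher, the former 5 and Cenpf, and 10 at least 2-fold lower, the former 9 and Anln. Only 2 suffixes then had at least 10 cells of each class. In these 2, Cdc20, Pttg1, Cenpa, Ccnb2 and Cenpf were higher in mitosis alone and Top2a was lower. Since sequences recurred between suffixes, agreement over 5 suffixes is not that of 5 independent libraries.

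The classes differed in RNA quality and in microglial transcripts as well. Mitosis-alone cells had 2.35% of their UMIs on mitochondrial genes, against 1.58% in cells high for both, 1.54% in replication-alone cells and 1.44% in cells high for neither. Their median was 3004.5 UMIs, against 3820 in cells high for both and 3499.5 in replication-alone cells. The 6 microglial markers summed to 8874 CPM in mitosis-alone cells, 10207 CPM in cells high for both, 12038 CPM in replication-alone cells and 13641 CPM in cells high for neither. Without shared sequences the mitochondrial share was 2.33% in mitosis-alone and 1.52% in replication-alone cells, and the markers summed to 8728 and 12104 CPM. What part these differences had in the ratios was not tested.

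Mitosis-alone cells were more frequent at a higher mitochondrial share. Among microglia-like cells it was 0.104% (upper limit 0.192) below 1% mitochondrial UMIs, 0.191% from 1 to 2%, 0.630% from 2 to 3% and 1.84% (1.23 to 2.65) from 3 to 5%. Cells high for both lists did not follow the same order, at 0.469%, 0.459%, 0.770% and 0.329%. Replication-alone cells ran between 1.75% and 2.70%. Without shared sequences the mitosis-alone shares were 0.0989%, 0.211%, 0.759% and 2.19% (1.38 to 3.30) in the same order. Median depth in these ranges was 2737.5, 3071, 2997 and 2191.5 UMIs.

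**Figure D4:**
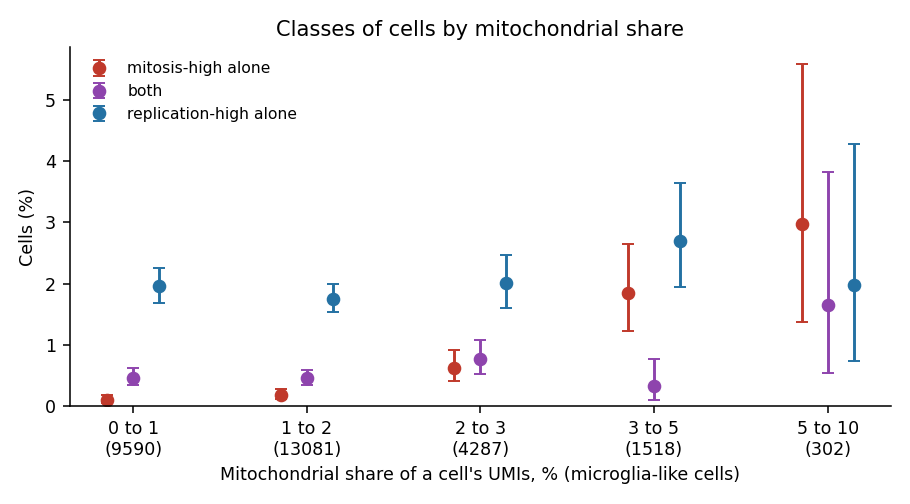
Share of microglia-like cells (%) high for mitosis alone, for both lists or for replication alone, by the mitochondrial share of a cell's UMIs, with exact 95% binomial intervals and the number of cells below each range; cells from 5 to 10% were removed by the filters. The mitosis-alone share is 0.104% in the first range and 1.84% from 3 to 5%, while replication-alone cells stay between 1.75% and 2.70% below 5%.

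Single members were not equally tied to mitotic cells. In mitosis-high microglia-like cells fell 86.9% of all Nusap1 UMIs (82.1 to 90.8), 83.4% of Prc1, 83.4% of Hmmr, 79.9% of Pbk and 78.6% of Plk1 UMIs. By contrast 20.9% of Tacc3 UMIs (18.2 to 23.9) did, 28.9% of Pttg1, 35.8% of Cdk1, 38.5% of Spc25 and 38.9% of Cenpa UMIs. For 13 of 37 genes the share was below 50%. Tacc3, Pttg1 and Cenpa were found in 2.03%, 1.76% and 1.31% of cells high for neither list, and Bub1 in 0.0217%. In cells with no UMI of any other member in their full counts, Tacc3 was still at 6.998 CPM (25163 cells, 512 UMIs), Pttg1 at 5.53 CPM, Cenpa at 3.598 CPM and Cdk1 at 3.26 CPM, whereas the median member was at 0.587 CPM. Reads from free RNA and from the cell itself cannot be told apart at these levels. Of the members, 6 overlap another annotated gene on the same strand (Top2a, Nusap1, Kif11, Tpx2, Ndc80 and Anln), and reads in the overlap could belong to either.

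The replication list ran the opposite way with exceptions. Of its 37 genes, 22 were at least 2-fold lower in mitosis-alone than in replication-alone cells, against 12% of genes, with a median ratio of 0.277. Without shared sequences 25 were. The classes were drawn with the other genes of this list, so this direction is in part built in and is not independent evidence. Dut and Prim1, which clear dUTP and prime DNA synthesis, had 1 UMI each in mitosis-alone cells, with ratios of 0.0383 (0.000963 to 0.216) and 0.0446 (0.00112 to 0.252). Rrm2, a ribonucleotide reductase subunit, and Esco2, which acetylates cohesin, were instead higher in mitosis alone, with ratios of 3.12 (2.03 to 4.72) and 4.01 (2.31 to 6.82). Both were higher still in cells high for both lists, at 805 and 347 CPM.

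Other gene groups of division were read in the same classes, with the 11.1% and 12% above as their background. All 12 other spindle motors and cytokinesis genes were at least 2-fold higher in mitosis alone than in replication alone, with a median ratio of 7.32; by level they were led by Kif22 (89.4 CPM), Kif20b (85.8 CPM), Kifc1 (85.8 CPM) and Aspm (68.0 CPM). Of 21 other kinetochore and checkpoint genes 14 were higher and 2 lower, and Bub3 (232 against 113 CPM), Knl1 (136 against 16.9 CPM), Spc24 (89.4 against 35.9 CPM) and Incenp (82.3 against 21.0 CPM) had the highest levels. Of 15 condensin and cohesin genes 7 were higher, including the condensin cores Smc4 (229 against 32.9 CPM) and Smc2 (150 against 69.8 CPM), while cohesin's Smc1a (168 against 133 CPM) did not reach 2-fold. The anaphase-promoting complex itself showed little difference: 3 of 18 genes were higher and 1 lower, with Ube2s at 422 against 192 CPM and Anapc5 at 157 against 133 CPM. Of 21 cyclins, kinases and inhibitors 12 were higher and 4 lower; Cks2, at 444 against 119 CPM, and Cks1b, at 261 against 62.1 CPM, encode small partners of Cdk1, while Ccnd1, the G1 cyclin, was at 50.1 against 170 CPM. Cdkn1a, which encodes the inhibitor p21, had the highest level of that list at 1102 against 630 CPM, and stood at 2949 CPM in cells high for both lists. Of 18 chromatin and tubulin genes 13 were higher, such as H2afz (2064 against 692 CPM), Hmgb2 (1288 against 625 CPM) and Stmn1 (726 against 308 CPM), which destabilizes microtubules, but not Tuba1b (1384 against 861 CPM). Of 16 transcription regulators of the cycle, 13 reached 10 CPM, of which 2 were higher and 4 lower; Foxm1, a regulator of mitotic genes, was at 35.8 against 2.05 CPM.

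Lists of microglial state were read against the same background, 11.1% of genes higher and 12% lower. Counts of 1 or 2 genes in lists this short are near these shares and are not a result about the lists. Of 13 genes of microglial activation 2 were higher and 2 lower, and of 6 immediate early genes none was higher and 1, Fos, was lower (3573 against 8851 CPM). All 4 MHC class II genes were at least 2-fold higher in mitosis alone, but in few cells: H2-Aa had 50 UMIs in 8 of 90 cells, of which 25 were in 1 cell. Mitosis-high cells exceeded replication-alone cells for H2-Aa in 3 of 5 suffixes. Among 5 interferon response genes of at least 10 CPM 1 was higher. Of the 6 microglial markers none was higher and 1, P2ry12, was at least 2-fold lower (1416 against 3080 CPM).

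Of genes outside all lists, 520 of at least 50 CPM were higher in mitosis-high than in replication-alone cells in each of 5 suffixes and 322 were lower. The number of genes tested is not given, so these counts are only the pool from which genes are named and not a result. The 10 with the highest ratios of mitosis alone over replication alone were Pimreg (33.1), Nek2 (24.4), Ifi27l2a (18.9), Cep55 (16.5), Cep89 (15.3), Ckap5 (14.7), Troap (12.8), Diaph3 (11.9), Dlgap5 (11.4) and C330027C09Rik (10.8). Most of these are known genes of mitosis, spindle poles or cytokinesis. Ifi27l2a, an interferon-inducible gene, is not: it was at 1127 CPM in mitosis-alone cells, in 67 of 90 cells, against 98.1 CPM in cells high for both lists, 59.5 CPM in replication-alone cells and 89.4 CPM in cells high for neither. The 10 with the lowest ratios were Ung (0.0369), Myc (0.173), Snx29 (0.214), Gpr180 (0.216), Icosl (0.235), Gsdme (0.236), Cables1 (0.243), Ecscr (0.269), Retreg1 (0.289) and Plpp1 (0.305). Ung, which removes uracil from newly made DNA, had 1 UMI in mitosis-alone cells and 189 in replication-alone cells.

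Most mitosis-high cells, 233 of 246, fell in the microglia-like gate, as did 28476 of all 29454 cells. This gate does not separate microglia from bone-marrow-derived macrophages, for which no gate was used. The authors report that cells of their macrophage cluster BMDM1 do express microglial genes such as Selplg, P2ry12 and Tmem119, although at low levels. For another, BMDM3, the genes they list first against their other macrophage clusters are Cenpa, Pttg1, Ccnb2, Stmn1 and Ifi27l2a. Whether mitosis-high cells of the microglia-like gate belong to that cluster was not tested. Lineages were gated by at least 3 distinct markers, as for microglia P2ry12, Tmem119, Gpr34, Olfml3, Cx3cr1 and Selplg. Of 28476 microglia-like cells 233 were mitosis-high (0.818%, 0.717 to 0.930), and 0.839% of those with a sequence under 1 suffix. Summed over members, microglia-like cells stood at 132 CPM (130 to 135), with 52.6 to 211 CPM in the 6 suffixes, and at 138 CPM without shared sequences.

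Granulocyte-like cells, gated on genes such as S100a8, S100a9, Ngp and Camp, had the highest share, 7 of 73 cells or 9.59% (3.94 to 18.8), and 393 CPM (326 to 470), with 169 to 712 CPM in 3 suffixes. The share rested on 3 barcode sequences: 5 of the 7 barcodes carried the same sequence under 5 suffixes. Without shared sequences 2 of 65 cells were mitosis-high, or 3.08% (0.375 to 10.7), an interval that held the microglial share, and the level was 223 CPM (172 to 286). The 7 barcodes held Ngp at 50660 CPM and Camp at 18527 CPM, against 14325 and 10044 CPM in the other 66. Both are genes of the granules of immature granulocytes. Cxcr2, a receptor of mature neutrophils, was at 50.2 (1.27 to 280) against 267 CPM (208 to 337). Of the other genes of the gate, Lcn2 was higher in the 7 barcodes (6728 against 2931 CPM). Lower were Ltf (2510 against 3179 CPM), Retnlg (4268 against 8437 CPM), S100a8 (52217 against 61658 CPM) and S100a9 (41121 against 44135 CPM). The 7 barcodes also held 3 to 6 of the 6 microglial markers, summed to 3464 CPM, against 7399 CPM in the other 66. No granulocyte-like cell with at most 1 microglial marker was mitosis-high. Such cells were few: the upper limit of that interval was 18.5%, so that it held the 9.59% of the whole gate.

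Natural killer (NK) cells and monocytes held few mitotic cells. Of 193 NK-like cells 1 was mitosis-high (0.518%, 0.0131 to 2.85), with 123 CPM (97.8 to 154) over all NK-like cells, and 283 CPM (258 to 308) when barcodes over 2500 genes were kept in, against 142 CPM in microglia-like cells on the same terms. Of 226 monocyte-like cells 2 were (0.885%, 0.107 to 3.16), with 159 CPM (136 to 185), and of 414 cells with few markers of any list 3 were (0.725%, 0.150 to 2.10). Without shared sequences these shares were 0.549%, 0.939% and 1.84%, with 126, 166 and 281 CPM; for cells with few markers the level over all barcodes was 149 CPM. No mitosis-high cell was seen among 16 dendritic, 19 type 2 innate lymphoid, 11 mast or basophil-like and 7 T or B-like cells, numbers at which the upper limits of the intervals were 20.6%, 17.6%, 28.5% and 41.0%. The intervals of all these lineages held the microglial share, so that with so few cells no difference in share from microglia was detectable. The upper limit of 2500 genes mattered here: among the barcodes it removed, 22 of 684 microglia-like cells (3.22%, 2.03 to 4.83), 2 of 103 NK-like cells (1.94%) and 3 of 56 monocyte-like cells (5.36%) were mitosis-high. The removed NK-like barcodes held a median of 6 microglial markers, against 2 in those kept, and the removed monocyte-like barcodes 6 against 1. Of all mitosis-high cells 10.2% (28 of 274) had over 2500 genes, as did 9.27% of replication-alone cells and 2.73% of cells high for neither.

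**Figure D5:**
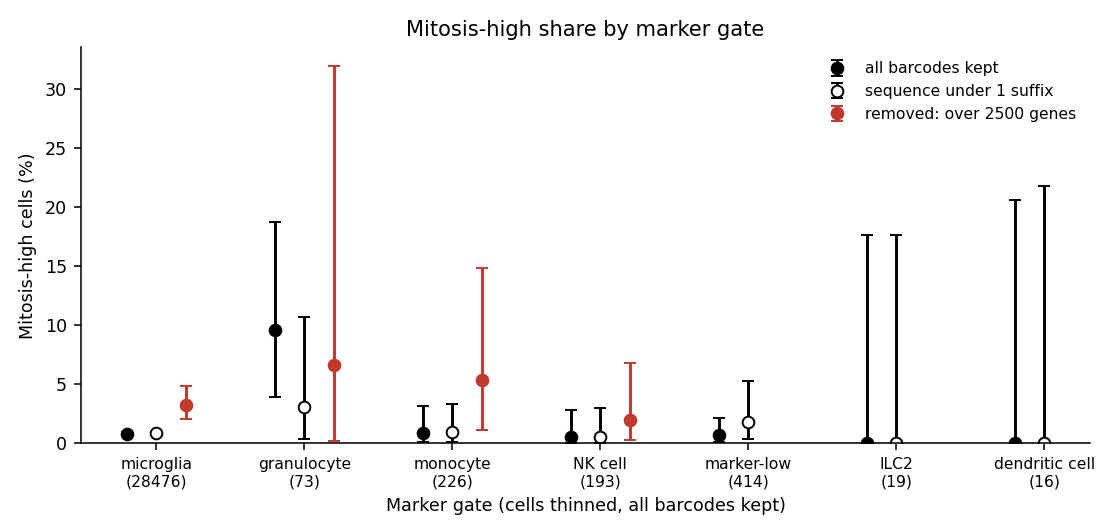
Mitosis-high share (%) by marker gate with exact 95% binomial intervals, for all barcodes kept, for those with a sequence under 1 suffix and for those removed for having over 2500 genes; the number of kept cells stands below each gate, and gates with fewer cells than these are not drawn. The granulocyte share falls from 9.59% to 3.08% without shared sequences, and the removed barcodes lie at 3.22% in microglia against 0.818% in those kept.

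Within microglia-like cells the mitosis-high share was lower at higher Apoe, a lipid carrier raised in reactive microglia, but the intervals overlapped. It was 0.924% (0.770 to 1.10) in cells with under 5 Apoe UMIs, 0.765% (0.572 to 1.00) with 5 to 14 and 0.687% (0.519 to 0.891) with 15 and over. The overlap depended on the thinning. Thinning to 500 UMIs per cell keeps shallower cells. The shares were then 0.595% (0.493 to 0.712) below 5 and 0.175% (0.0932 to 0.299) from 15, whose intervals lay apart. A given count of Apoe UMIs is then also a larger share of a cell's UMIs. The groups at 500 UMIs are therefore not those at 1000 UMIs. Without shared sequences at 1000 UMIs the shares below 5 and from 15 were 0.942% and 0.675%. Replication-high shares over the same ranges were 3.08%, 2.34% and 1.37%, with intervals that did not overlap between the first (2.79 to 3.38) and the last (1.13 to 1.65). The mitosis-high Apoe order did not hold in each suffix. In suffix 3, with 4 mitosis-high cells in all, the shares were 0.127%, 0.213% and 0.562%. In suffixes 1, 2, 4, 5 and 6 the share below 5 was above that from 15. These were 0.819% against 0.750%, 0.477% against 0.444%, 1.82% against 1.07%, 1.21% against 0.727% and 1.53% against 0.624%. Of these suffixes, the middle range lay between only in suffixes 4 and 6. Of 573 cells with Lpl, a lipase of lipid-handling microglia, 7 were mitosis-high (1.22%, 0.493 to 2.501) against 0.810% of cells without it, or 2.02% (0.660 to 4.66) without shared sequences, and 5.58% against 2.35% were replication-high. Of 369 cells with at least 3 MHC class II genes 3 were mitosis-high, and of 197 with at least 3 interferon response genes 2 were.

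Promoters of the members are shown because the 37 genes moved together. RefSeq promoters (GRCm38.p6, 250 bases before to 50 after the start) were matched for 33 of 37 members, with 34 promoters, and for 27 of 37 replication genes, with 32. Searched on both strands, the cell cycle genes homology region, or CHR (TTTGAA or TTCGAA), known as the site through which the DREAM complex keeps mitotic genes off in resting cells, was found in 26 of 34 member promoters (76.5%), 12.5% of replication promoters and 19.2% of all 32851. The CCAAT box (CCAAT), the site of NF-Y, was found in 76.5%, 53.1% and 37.4%, and E2F sites (TTTCCCGC, TTTCGCGC, TTTGCCGC or TTTGGCGC) in 2.94%, 37.5% and 2.26%. A CCAAT box stood before a CHR in 23 of 34 member promoters, with a median of 28 bases between their first bases, and in 4.01% of all promoters, with a median of 58. In the 250 bases before the start alone, CHR was found in 35.3% of member promoters and 17.1% of all. The 70 bases before the RefSeq start are given, for members with CHR and CCAAT in capitals on either strand. Members were chosen from both ends of the order between mitosis alone and both lists. Only members with a CHR and a CCAAT box in this window could be printed. The replication gene Mcm6 is given with only its E2F site in capitals. Its 2 CCAAT boxes, which read as ATTGG in the letters printed, are left in lower case.
Cdc20 (higher in mitosis alone; chr4:118437344-118437413, minus strand): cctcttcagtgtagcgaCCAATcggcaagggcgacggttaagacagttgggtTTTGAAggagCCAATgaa
Top2a (lower in mitosis alone; chr11:99024190-99024259, minus strand): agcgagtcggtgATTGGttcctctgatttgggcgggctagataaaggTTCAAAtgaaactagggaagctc
Kif11 (lower in mitosis alone; chr19:37376312-37376381, plus strand): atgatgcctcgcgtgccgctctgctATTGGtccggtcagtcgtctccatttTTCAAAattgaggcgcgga
Mcm6 (replication; chr1:128359706-128359775, minus strand): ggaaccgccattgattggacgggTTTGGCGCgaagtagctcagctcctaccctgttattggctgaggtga
Cdc20, Top2a and Kif11 carry the pair of motifs because of this choice. The pair therefore cannot be set against their ratios of mitosis alone over both lists, which were 3.43, 0.237 and 0.284. Pttg1 and Knstrn, also higher in mitosis alone, and Nusap1, lower there, had no CHR or CCAAT box in their promoters. A match is a description of the letters and not a measured binding site.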

How the data were processed

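Immune cells of 6 mice were profiled by 10x Chromium 3′ v2 libraries. The authors aligned to mm10 and counted with Cell Ranger (3.1.0 in the file header). They deposited 1 matrix of raw UMI counts, whole numbers per gene and barcode, in which the 6 libraries were joined. Median UMIs per barcode ran from 1536 to 3503 over the suffixes. The per-library medians in the paper's supplement span the same range, so depth was not equalized. Suffixes held 9745192 to 24393841 UMIs. The authors' limits were applied (over 200 and at most 2500 genes, under 5% mitochondrial counts). CPM are UMIs of a gene per 1000000 UMIs of the cells summed. Thinning drew 1000 UMIs per cell without replacement (numpy 2.4.6, seed 1); genes were located in GENCODE vM21. Functions were tested on simulated data. Scrublet (scanpy 1.11.5) marked 17 of 40411 barcodes (0.0421%), under 0.5%, so its calls did not work and doublets remain in. Alternatives were other gene minimums (2 or 4), thinning to 500 or 2000 UMIs, other filters and marker numbers, another seed and leaving out each suffix. Shared barcodes and the 5% highest Scrublet scores were left out as alternatives chosen after seeing the data. The members and lists were chosen with earlier results of these data known. Named genes were the 12 members highest in mitosis-high cells, the 5 highest and lowest ratios, the 5 largest and smallest UMI shares, and 10 outside genes each way of at least 50 CPM; of other lists, up to 4 genes by level. Other named genes were chosen after their values were seen. Clec7a was not analysed here.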

Additional observations from a re-analysis of the deposited data

Results flagged for a closer look

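Mitosis genes also appeared in barcodes outside the comparisons, thinned to 1000 UMIs like the others; the share among cells kept was 0.835%. Of 888 barcodes with at least 1000 UMIs and over 2500 genes, which the filters removed, 28 were mitosis-high (3.15%, interval 2.11 to 4.53). Of 343 barcodes with 5 to 10% mitochondrial counts, also removed, 14 were mitosis-high (4.08%, 2.25 to 6.75). Both sets are listed because the report uses neither for its main values. The removed microglia-like barcodes over 2500 genes had a median of 9023.5 UMIs against 2499.5 in those kept, and the part of depth and doublets was not tested. Of 154 choroid plexus-gated barcodes none was, with an upper limit of the interval of 2.37%.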

How the results depend on the processing

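No paired analysis was possible because the labels used for grouping do not tie barcode suffixes to mice and no groups were compared. Of 262 alternative values 200 stayed within the interval or spread of the reported value and 62 moved. Changes of direction were not scored. Thinning and the minimum of distinct genes set the level of a share. The mitosis-high share of 0.835% was 1.17% at a minimum of 2 genes, 0.693% at 4, 0.480% and 1.23% at 500 and 2000 UMIs and 1.24% without thinning; replication-high (2.39%) was 5.85%, 1.37%, 0.769%, 5.69% and 6.87%, and 2.73% with sequences under 1 suffix or 2.57% with each sequence once. Their overlap was 39.5% at 500 UMIs. In microglia (0.818%) it was 1.13%, 0.692%, 0.467% and 1.21%. In granulocytes (9.59%) it was 2.86% at 500 UMIs, 3.08% with sequences under 1 suffix and 0% (upper limit 18.5%) with at most 1 microglial marker. In NK cells (0.518%, 1 cell) it was 0% at 4 genes, 500 or 2000 UMIs and another seed. At 2 genes, 500 and 2000 UMIs it was 1.27%, 0.595% and 1.22% with Apoe under 5, and 0.993%, 0.175% and 1.13% with 15 and over; with Lpl it was 0% and 2.70% at 500 and 2000 UMIs.

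Summed CPM of the members moved in granulocytes (393) to 223 with sequences under 1 suffix, 282 with each once and 516 at 4 markers. With at most 1 microglial marker it was 70.4 (interval 19.2 to 180). In microglia (132) it was 142 without the gene limit, 136 at 10% mitochondrial counts, 140 without the highest Scrublet scores, 138 with sequences under 1 suffix and 136 with each once. In NK cells (123) it was 283 without the gene limit and 165 with at most 1 microglial marker, and in monocytes (159) 217 without the gene limit. Leaving out 1 suffix at a time gave mitosis-high shares of 0.696% (without suffix 4) to 0.978% (without suffix 2), replication-high shares of 1.96% to 2.65%, microglial shares of 0.683% to 0.964%, NK shares of 0% (without suffix 4) to 1.03% (without suffix 6), Apoe under 5 shares of 0.755% to 1.12%, and summed CPM of 118 to 145 in microglia and 312 to 476 in granulocytes. Members at least 2-fold higher in mitosis alone than in replication alone were 37 of 37 under the alternatives run, with these exceptions. They were 36 at a minimum of 4 distinct genes and 36 with thinning to 2000 UMIs. At a minimum of 50 CPM they were 34, since Kif11, Spc25 and Anln lay below 50 CPM in both classes and were not counted. The CHR share fell to 35.3% in the 250 bases before the start. The causes were not tested. Cell number limits the shares of all lineages but microglia.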
